A study of Homo sapiens with 6 samples.

Results

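The genes described here are those for the translation initiation factors, taken as every row of the read count table whose symbol starts with EIF and a digit. The kinases of eIF2, the eIF4E-binding proteins and pseudogene rows were left out, which took 8 of 60 such rows and left 52 of the 23250 genes in the table. RNA was sequenced from OCI-LY1 cells, an established line that models diffuse large B cell lymphoma (DLBCL). One group of 3 libraries carried BCL6 mutated in its second repression domain, RD2, and is called the RD2-mutant rescue. The other group of 3 libraries carried wild-type BCL6 and is called the wild-type rescue. In both groups the cells had first received siRNA against BCL6, and the BCL6 put back was expressed from an introduced copy. No library had the siRNA alone, and none was from untreated cells. BCL6 is a transcriptional repressor that germinal centre B cells need. One cell line was used, and whether the libraries of a group were separate cultures is not stated in the labels, so p-values cover only the spread between libraries.

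Initiation is the step of protein synthesis at which the small ribosomal subunit is brought to an mRNA and finds the start codon. eIF2 carries the initiator tRNA and is recharged by eIF2B, eIF4F (the cap-binding EIF4E, the scaffold EIF4G and the helicase EIF4A) loads the mRNA, and eIF3 is the large complex that holds these parts on the ribosome. eIF1 and eIF1A guard start codon choice, eIF5 and eIF5B complete it, and growing B cells and lymphomas with high MYC are known for high demand on this machinery.

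Each library held between 26298456 and 27574867 counts, and a floor of 3 counts corresponded to 0.109 to 0.114 CPM, the count scaled to library size. The defining B cell markers were all present, with 10 of 10 tested. Their sum was 6441 to 6797 CPM in the RD2-mutant rescue against 6416 to 6663 CPM in the wild-type rescue. BCL6, put back in every library, is among these markers and part of the sum. None of 5 T cell or 5 myeloid markers had enough counts to be tested. Of 5 epithelial and stromal markers 1 was tested, EPCAM, with 93, 109 and 96 counts in the RD2-mutant rescue against 432, 437 and 423 in the wild-type rescue. BCL6 itself had 14166, 13726 and 13827 counts in the RD2-mutant rescue and 19069, 16998 and 18789 in the wild-type rescue, which was 1.31-fold lower in the RD2-mutant rescue (edgeR quasi-likelihood test, adjusted p = 7.90e-10). An effect of the mutation and one of the amount of BCL6 cannot be told apart. Library 2 of the RD2-mutant rescue stood somewhat apart from its group, with a chi-square per degree of freedom of 4.36 and 5.47 against the other two, beside 1.75 between those.

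More initiation factor genes were lower than higher in the RD2-mutant rescue. Of the 47 members tested, 30 fell, 3 rose and 14 did not pass the test (edgeR quasi-likelihood test; called where the p adjusted over all 12406 genes tested was under 0.05). That is 63.8% lower and 6.38% higher, beside a background of 34.8% lower and 35.4% higher over all genes tested, or 70.1% in either direction. Members are mostly abundant: of the 41 with a mean of at least 50 CPM, 27 were lower and 2 higher, beside 43.1% lower and 35.6% higher over the 5037 genes at that level, or 78.7% in either direction. The median log2 fold change of the members was -0.18, against 0.01 over all genes tested and -0.03 over the abundant ones. Most differences were small. When a change beyond 1.2-fold was required (glmTreat in edgeR), 15 members were lower and 1 higher, beside 17.7% lower and 19.2% higher over all genes. In bulk RNA, fewer cells with a transcript and less of it per cell cannot be told apart, and all values are relative to the library total.

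The falls were not spread evenly over the complexes. All 12 tested subunits of eIF3 fell, as did eIF6 and both tested eIF5A genes, while in the eIF4 group 3 of 11 fell, in eIF2B 2 of 5, in the eIF2 group 3 of 5 and among eIF1 and eIF1A 3 of 5. EIF5, EIF4G2 and EIF2C4 were the members that rose. Together the members took 1.26% to 1.30% of all counts in the RD2-mutant libraries and 1.38% to 1.39% in the wild-type libraries.

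**Figure D1:**
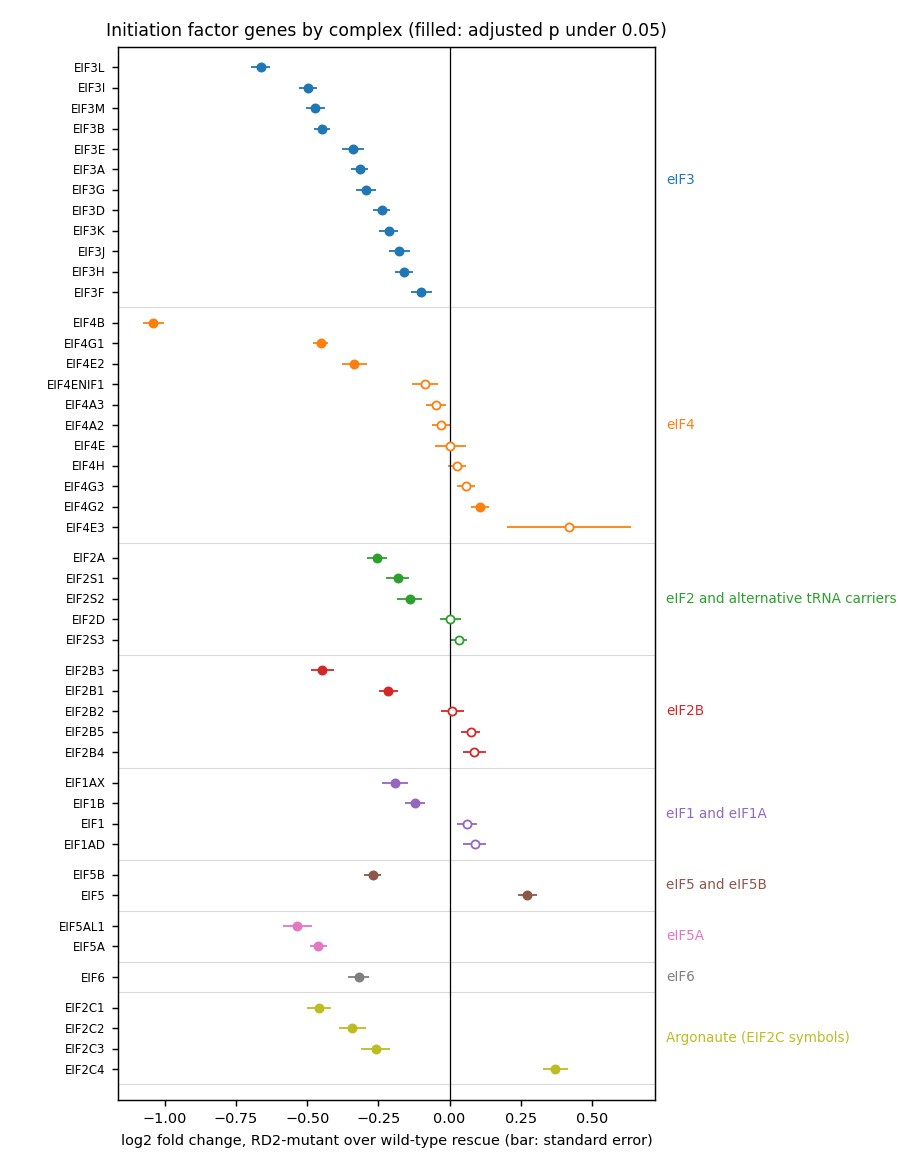
Log2 fold change of the tested members, RD2-mutant over wild-type rescue (x axis), grouped by factor complex (y axis and colours); bars are standard errors, filled points passed the test at adjusted p under 0.05, and the Y-linked member is not drawn. All eIF3 points lie left of 0, whereas the eIF4 points run from -1.04 for EIF4B to 0.42 for EIF4E3.

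The other 5 members could not be compared. EIF3C, EIF3CL and EIF4A1 were listed at 0 counts in all 6 libraries, and no level can be read from those rows. EIF3C and EIF3CL are copies with 100% identical coding sequence over 2739 aligned bases in GENCODE v29, and EIF3CL holds 96.8% of the 50-base stretches of the EIF3C transcript. EIF4A1, the main helicase of eIF4F, has 83.5% of its exon bases inside exons of the read-through gene SENP3-EIF4A1, and 100% inside exons of some other annotated gene of the same strand. The SENP3-EIF4A1 row had 17, 14 and 19 counts in the RD2-mutant rescue against 3, 3 and 8 in the wild-type rescue. How the authors counted reads that fit more than one gene is not given in the sources used here. EIF4E1B, an oocyte form of the cap-binding protein, had 1 or 2 counts per library, and EIF5A2 had 1 count in all.

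eIF3 is built of a core of subunits with PCI and MPN domains (EIF3A, EIF3C, EIF3E, EIF3F, EIF3H, EIF3K, EIF3L and EIF3M), a module of EIF3B, EIF3G and EIF3I, and the outer subunits EIF3D and EIF3J. All 12 tested genes were lower in the RD2-mutant rescue, with no overlap between the groups for any of them; over all genes tested, 72.4% had no overlap. Log2 fold changes ran from -0.66 to -0.10 with a median of -0.30, and the eIF3 genes took 0.312% to 0.318% of counts in the RD2-mutant libraries against 0.391% to 0.394% in the wild-type libraries. RD2-mutant and wild-type values of each subunit are drawn in the plot of eIF3 genes by library.

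EIF3L, a core subunit, had 5776, 6200 and 5752 counts in the RD2-mutant rescue and 9443, 9202 and 9619 in the wild-type rescue. The groups lay far apart, a 1.58-fold fall (221 ± 8.73 against 350 ± 4.66 CPM, SD, n = 3 each; log2 -0.66, SE 0.033; edgeR, adjusted p = 2.50e-13). In GENCODE v29, 41.6% of the EIF3L exon bases are shared with another annotated gene of the same strand. EIF3I, a propeller protein of the EIF3B module, had 5756, 6034 and 5891 counts in the RD2-mutant rescue and 8541, 7975 and 8633 in the wild-type rescue. It fell 1.41-fold, and EIF3B, the scaffold of that module, fell 1.36-fold with 11260, 11286 and 11038 counts against 15561, 14966 and 15584. The third gene of the module, EIF3G, an RNA-binding subunit, fell less, by 0.29 on the log2 scale.

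EIF3A, the largest subunit, had 16588, 17256 and 16180 counts in the RD2-mutant rescue against 21352, 20365 and 20915 in the wild-type rescue. The fall was 1.24-fold (623 ± 17.8 against 775 ± 6.97 CPM, SD, n = 3 each; log2 -0.31, SE 0.030; edgeR, adjusted p = 7.12e-09). EIF3E, first described as a site of viral integration in mouse mammary tumours, had 4872, 5525 and 4978 counts in the RD2-mutant rescue against 6555, 6463 and 6557 in the wild-type rescue. RD2-mutant library 2 was the highest of its group for this gene, and the groups stayed apart (log2 -0.34, SE 0.040; edgeR, adjusted p = 2.50e-07). Of the 50-base stretches of the longest coding transcript of EIF3E, 16.3% also occur in other GENCODE genes. The core subunit EIF3M was lower by 1.39-fold, with 6820, 7381 and 6807 counts against 9825, 9609 and 9887.

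The smaller falls were those of EIF3D, a subunit that can itself bind the cap of some mRNAs, with a log2 fold change of -0.24, and of EIF3K (-0.21), the loosely bound EIF3J (-0.18) and EIF3H (-0.16). EIF3F had the smallest, with 2588, 2719 and 2587 counts in the RD2-mutant rescue and 2853, 2840 and 2823 in the wild-type rescue (log2 -0.10, SE 0.037; edgeR, adjusted p = 0.0198). Its call was lost without RD2-mutant library 1 (adjusted p = 0.0675), RD2-mutant library 3 (0.0674) or wild-type library 2 (0.110) by edgeR.

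**Figure D2:**
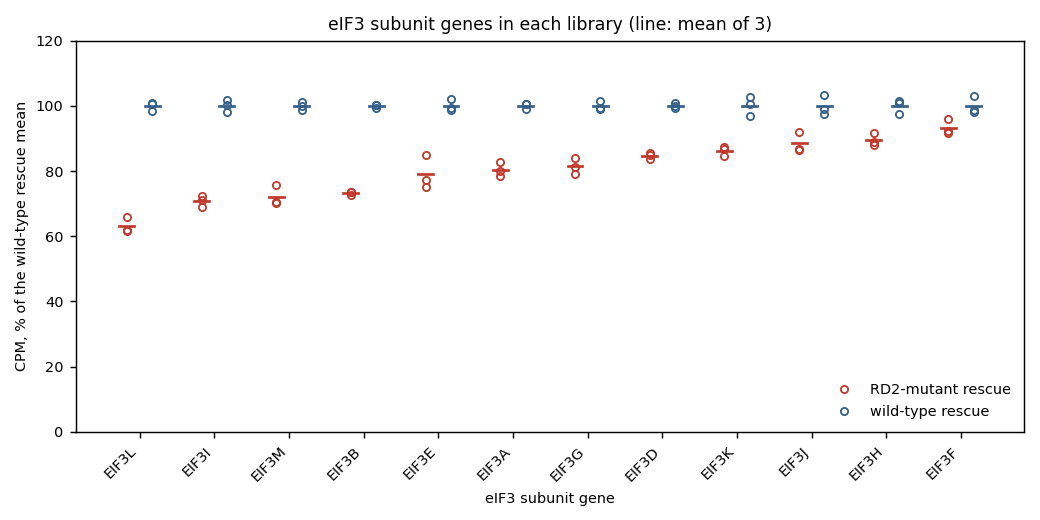
Each eIF3 subunit gene (x axis) in each library, as TMM-scaled CPM in percent of the mean of the wild-type rescue (y axis); points are libraries and lines are means of 3. In every gene the RD2-mutant points lie below the wild-type points, and the gap narrows from EIF3L on the left to EIF3F on the right.

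The mRNAs of ribosomal proteins, elongation factors and some initiation factors begin with a C and an unbroken run of pyrimidines, the 5′ terminal oligopyrimidine tract, through which LARP1 and mTOR are known to act on their stability and translation. RefSeq promoters (GRCh38.p14, 250 bases before to 50 after the start) were found for 44 of the 52 members, and the transcript strand was searched for a C at the first transcribed base followed by at least 4 bases that were each C or T. Of the members 9 (20.5%) had such a start, against 7.62% of the 9479 tested genes with a promoter. They are shown because the group holds the member with the lowest log2 fold change and also 3 that did not pass the test. Each line gives 10 bases before and 15 from the annotated start, with the pyrimidine run in capitals.
EIF4B, chr12:53006446-53006470, plus strand: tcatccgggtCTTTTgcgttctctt
EIF3M, chr11:32583821-32583845, plus strand: gcccagttccCTTTTCCggtcggcg
EIF2A, chr3:150546777-150546801, plus strand: cgagcggtttCTCTTTCCgggacaa
EIF3D, chr22:36529152-36529176, minus strand: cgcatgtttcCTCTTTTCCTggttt
EIF3K, chr19:38619178-38619202, plus strand: tttccaccacCTCTTCCTgttcccg
EIF3F, chr11:7987327-7987351, plus strand: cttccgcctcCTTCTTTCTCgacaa
EIF4A2, chr3:186783567-186783591, plus strand: gcgccgctgtCTTTTCagtcgggcg
EIF2D, chr1:206612451-206612475, minus strand: ccagccgggcCCTTTTCgcggccgg
EIF2S3, chrX:24054946-24054970, plus strand: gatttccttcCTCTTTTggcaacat

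The first 6 of these genes fell, none rose, and EIF4A2, EIF2D and EIF2S3 did not pass the test, with log2 fold changes of -0.03, 0.00 and 0.03. The median over the 9 was -0.21, against -0.15 over the 31 tested members whose promoter lacked the tract. Of those 31, 17 fell and 3 rose. No promoter was found for the tested members EIF2C2, EIF2S2, EIF3A, EIF3E, EIF3G, EIF3H and EIF3L. All of these fell, so the tested members missing from these counts and medians are all ones that fell. EIF3M, EIF3D, EIF3K and EIF3F are among the 9, and EIF3B, EIF3I and EIF3J had a promoter without the tract. For the other tested eIF3 genes the start is not known here, and all 12 tested eIF3 genes fell. Members with and without the tract thus also differ in complex, and whether the tract bears on the falls was not tested. Over all tested genes with a promoter, 43.0% of the 728 rows with the tract were lower and the median was -0.05, against 35.3% and 0.01 for the 8833 rows without it. These are rows of the table, some of which carry older symbols of 1 current gene, so they outnumber the 9479 genes.

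Within eIF4F and its partners the genes moved apart. EIF4B, the RNA-binding partner that stimulates the helicase, had 3248, 3620 and 3422 counts in the RD2-mutant rescue and 7140, 6911 and 7263 in the wild-type rescue. Every RD2-mutant library was far below every wild-type library, and the gene fell 2.06-fold, the lowest log2 fold change of all tested members (128 ± 6.82 against 264 ± 3.04 CPM, SD, n = 3 each; log2 -1.04, SE 0.037; edgeR, adjusted p = 8.08e-16). EIF4B has several processed pseudogenes, and 30.6% of the 50-base stretches of its longest coding transcript also occur in other GENCODE genes. EIF4H, a related stimulator of the helicase, had 9278, 9815 and 9487 counts in the RD2-mutant rescue and 9448, 9317 and 9488 in the wild-type rescue (log2 0.03, SE 0.031; edgeR, adjusted p = 0.471). Its groups overlapped.

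EIF4G1, the main scaffold of eIF4F, had 27014, 27825 and 27261 counts in the RD2-mutant rescue and 38062, 36888 and 38194 in the wild-type rescue. The groups lay well apart, a 1.37-fold fall (1023 ± 14.2 against 1401 ± 11.8 CPM, SD, n = 3 each; log2 -0.45, SE 0.028; edgeR, adjusted p = 5.97e-12). EIF4G3, the second scaffold, had 4373, 4279 and 4287 counts in the RD2-mutant rescue and 4192, 4068 and 4260 in the wild-type rescue (log2 0.06, SE 0.032; edgeR, adjusted p = 0.117). EIF4G3 was called higher in edgeR with total-count scaling (adjusted p = 0.0174) or a minimum of 1 CPM in all libraries (0.0386), and without RD2-mutant library 2 (0.0453). Within a library the log2 ratio of EIF4G1 to EIF4G3 was 2.63, 2.70 and 2.67 in the RD2-mutant rescue against 3.18, 3.18 and 3.16 in the wild-type rescue. The mean difference was -0.51, with no overlap between groups (exact permutation test, two-sided, p = 0.1, the smallest this design allows; 0.133 adjusted over the 4 pairs of related genes that could be compared).

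EIF4G2 (DAP5), a scaffold that lacks the site for EIF4E and serves cap-independent initiation, moved the other way from EIF4G1. It had 87719, 95712 and 88445 counts in the RD2-mutant rescue against 84400, 83778 and 86041 in the wild-type rescue, with RD2-mutant library 2 well above the rest. The rise was 1.08-fold (log2 0.11, SE 0.032; edgeR, adjusted p = 0.00550), under the minimum change of 1.2-fold. Without RD2-mutant library 2 the log2 fold change of EIF4G2 was 0.07 (edgeR, adjusted p = 0.00522).

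EIF4E, which binds the cap and limits initiation on many growth mRNAs, had 949, 1013 and 858 counts in the RD2-mutant rescue and 950, 933 and 952 in the wild-type rescue. The wild-type values lay inside the spread of the RD2-mutant values, and no difference was detected (35.1 ± 2.76 against 35.1 ± 0.551 CPM, SD, n = 3 each; log2 0.00, SE 0.055; edgeR, adjusted p = 0.980). EIF4E2 (4EHP), a cap-binding protein that represses translation, fell 1.26-fold (edgeR, adjusted p = 7.17e-07). It had 1073, 1089 and 1045 counts in the RD2-mutant rescue against 1388, 1291 and 1395 in the wild-type rescue. In GENCODE v29, 33.2% of the EIF4E2 exon bases are overlapped by annotated genes of the opposite strand. The log2 ratio of EIF4E to EIF4E2 was -0.18, -0.10 and -0.28 in the RD2-mutant rescue and -0.55, -0.47 and -0.55 in the wild-type rescue (mean difference 0.33; exact permutation p = 0.1, adjusted 0.133). EIF4E3, a weakly expressed relative, had 30, 38 and 37 counts against 32, 25 and 22, and its log2 fold change of 0.42 (SE 0.22) did not pass the test (edgeR, adjusted p = 0.0921). Its ratio to EIF4E overlapped between the groups (mean difference of EIF4E over EIF4E3 -0.43; exact permutation p = 0.2, adjusted 0.2).

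EIF4A2, the helicase paralogue of EIF4A1, had 7691, 7835 and 7440 counts in the RD2-mutant rescue and 8133, 7357 and 8114 in the wild-type rescue (log2 -0.03, SE 0.033; edgeR, adjusted p = 0.435). With EIF4A1 listed at 0, the helicase of eIF4F is read here only through this gene. EIF4A3, a related helicase of the exon junction complex rather than of initiation, had a log2 fold change of -0.05 and overlapping groups. Without RD2-mutant library 2, EIF4A3 was called lower in edgeR (adjusted p = 0.0259). EIF4ENIF1 (4E-T), which carries EIF4E to the nucleus and to P-bodies, had -0.09 and did not pass either (edgeR, adjusted p = 0.105). EIF4ENIF1 was called lower in edgeR without RD2-mutant library 2 (adjusted p = 0.0484) or wild-type library 2 (0.0245).

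**Figure D3:**
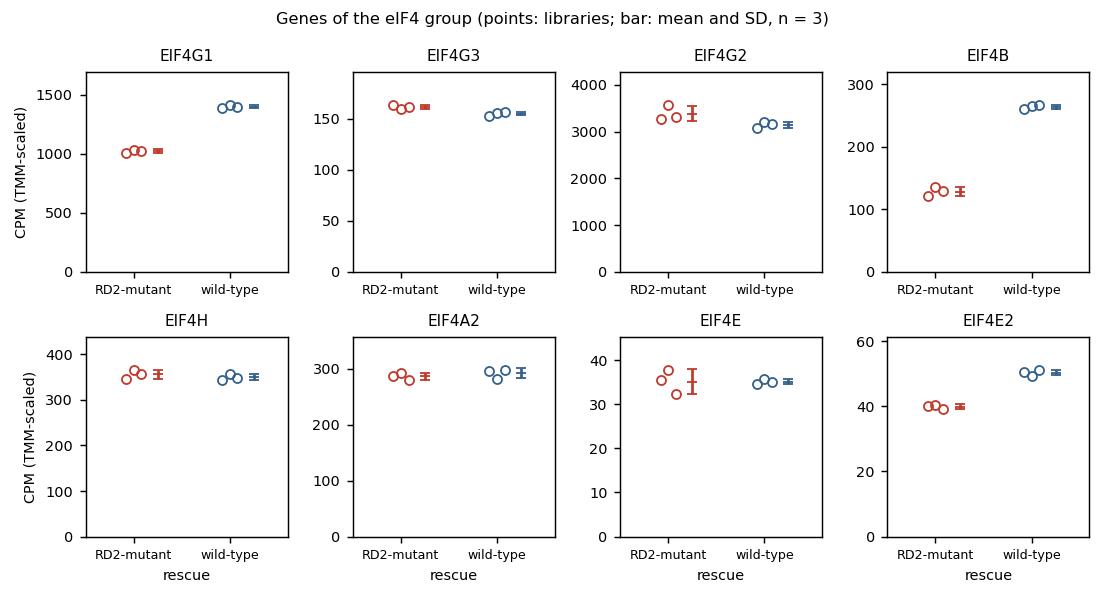
TMM-scaled CPM (y axis, each panel with its own scale from 0) of 8 genes of the eIF4 group in the RD2-mutant and wild-type rescue libraries (x axis); points are libraries and bars are mean and SD of 3. EIF4G1, EIF4B and EIF4E2 are lower in the RD2-mutant rescue without overlap, whereas EIF4E, EIF4A2 and EIF4H overlap; heights are not comparable between genes of different length.

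MYC is known to bind the E-box CACGTG in the promoters of EIF4E and EIF4G1, and MYC had 4934, 4919 and 5096 counts in the RD2-mutant rescue against 7369, 6853 and 7184 in the wild-type rescue (log2 -0.51, SE 0.032; edgeR, adjusted p = 1.00e-11). The E-box reads the same on both strands. It was found in the 300-base promoter of 10 of the 44 members (22.7%), against 12.9% of tested genes with a promoter. The 250 bases before the annotated start are shown for EIF4G1, EIF4E and EIF4B, since the first and last of these fell and EIF4E did not change detectably, with each E-box in capitals.
EIF4G1, chr3:184314356-184314605, plus strand: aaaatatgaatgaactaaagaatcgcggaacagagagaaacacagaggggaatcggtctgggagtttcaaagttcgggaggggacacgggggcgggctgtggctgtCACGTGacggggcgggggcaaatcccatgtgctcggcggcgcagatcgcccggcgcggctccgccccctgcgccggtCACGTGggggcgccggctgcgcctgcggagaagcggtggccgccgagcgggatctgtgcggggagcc
EIF4E, chr4:98929134-98929383, minus strand: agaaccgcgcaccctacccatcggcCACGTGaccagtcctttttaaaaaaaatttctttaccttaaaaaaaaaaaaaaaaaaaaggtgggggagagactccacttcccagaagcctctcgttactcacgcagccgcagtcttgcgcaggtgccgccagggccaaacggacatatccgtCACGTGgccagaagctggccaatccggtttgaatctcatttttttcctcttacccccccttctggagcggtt
EIF4B, chr12:53006206-53006455, plus strand: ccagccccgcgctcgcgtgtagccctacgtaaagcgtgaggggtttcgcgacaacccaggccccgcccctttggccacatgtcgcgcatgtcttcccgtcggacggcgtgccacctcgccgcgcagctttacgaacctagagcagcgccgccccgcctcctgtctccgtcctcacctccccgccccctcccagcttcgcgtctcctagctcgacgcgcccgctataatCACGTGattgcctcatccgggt
EIF4G1 and EIF4E each had 2 E-boxes in this stretch and EIF4B had 1. Of the 9 tested members with an E-box, 6 fell, 0 rose and 3 did not pass the test (median log2 fold change -0.12), and of the 31 without one, 17 fell and 3 rose (median -0.18). EIF4A3, EIF4H and EIF4E were the members with an E-box that did not pass. The tested members for which no promoter was found, all of which fell, are in neither count. Over the table rows of all tested genes with a promoter, 42.6% of those with an E-box were lower (median -0.07). Of those without one, 34.9% were lower (median 0.02). Whether the E-box bears on the change of the members was not tested.

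The eIF2 group changed little. EIF2S1, the alpha subunit whose phosphorylation shuts down initiation under stress, had 5646, 6366 and 5772 counts in the RD2-mutant rescue and 6764, 6836 and 6710 in the wild-type rescue. It fell 1.14-fold (log2 -0.18, SE 0.041; edgeR, adjusted p = 5.49e-04), with RD2-mutant library 2 nearest to the wild-type values. The beta subunit gene EIF2S2 fell by 0.14 on the log2 scale, a call that was lost without wild-type library 2 (edgeR, adjusted p = 0.0576), and the gamma subunit gene EIF2S3, which binds GTP and the tRNA, did not pass the test (log2 0.03, SE 0.030; edgeR, adjusted p = 0.341). Of the 50-base stretches of their longest coding transcripts, 22.6% for EIF2S2 and 23.2% for EIF2S3 also occur in other GENCODE genes. EIF2A, a separate protein that can deliver tRNA without eIF2, had the lowest value of the group, with 4090, 4407 and 4018 counts in the RD2-mutant rescue against 5051, 4893 and 5083 in the wild-type rescue (log2 -0.25, SE 0.036; edgeR, adjusted p = 1.98e-06). EIF2D, which acts in reinitiation and recycling, had overlapping groups (log2 0.00).

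The subunits of eIF2B, the exchange factor that recharges eIF2 with GTP, did not move together. EIF2B3, the gamma subunit that pairs with the catalytic one, had 1354, 1412 and 1314 counts in the RD2-mutant rescue and 1886, 1801 and 1911 in the wild-type rescue. It fell 1.36-fold, with a wide gap between the groups (50.8 ± 1.63 against 69.3 ± 0.712 CPM, SD, n = 3 each; log2 -0.45, SE 0.041; edgeR, adjusted p = 4.58e-09). EIF2B1, the alpha subunit, fell by 0.22 on the log2 scale. EIF2B5, the catalytic epsilon subunit, had 4576, 4504 and 4401 counts in the RD2-mutant rescue against 4460, 4068 and 4370 in the wild-type rescue, and just missed the threshold (log2 0.07, SE 0.033; edgeR, adjusted p = 0.0510). EIF2B4 was also short of it (log2 0.09; edgeR, adjusted p = 0.0674), and EIF2B2 was at 0.01. EIF2B5 was called higher in edgeR with total-count scaling (adjusted p = 0.00806), upper-quartile scaling (0.0451) or a minimum of 1 CPM in all libraries (0.0169), without RD2-mutant library 2 (0.0264) or wild-type library 1 (0.0424), and with limma-voom (0.0494). EIF2B4 was called higher in edgeR with total-count scaling (adjusted p = 0.0217) or the minimum of 1 CPM (0.0316), and without RD2-mutant library 2 (0.0361).

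EIF1, the guard of start codon choice, had 8837, 9605 and 8904 counts in the RD2-mutant rescue and 8787, 8735 and 8853 in the wild-type rescue (log2 0.06, SE 0.034; edgeR, adjusted p = 0.116). Its paralogue EIF1B had 2337, 2388 and 2330 counts against 2655, 2466 and 2614 and fell slightly (log2 -0.12, SE 0.035; edgeR, adjusted p = 0.00430). The log2 ratio of EIF1 to EIF1B was 1.92, 2.01 and 1.93 in the RD2-mutant rescue against 1.73, 1.82 and 1.76 in the wild-type rescue (mean difference 0.18; exact permutation p = 0.1, adjusted 0.133). EIF1AX, which encodes eIF1A, had 1589, 1696 and 1541 counts in the RD2-mutant rescue and 1800, 1888 and 1853 in the wild-type rescue, a 1.14-fold fall (edgeR, adjusted p = 9.38e-04). Its Y-linked copy EIF1AY was tested and counted, and its level is not reported. EIF1AD, a nuclear protein with an eIF1A-like domain, missed the threshold (log2 0.09; edgeR, adjusted p = 0.0561). EIF1 was called higher in edgeR with total-count scaling (adjusted p = 0.0123) or a minimum of 1 CPM in all libraries (0.0435), and without RD2-mutant library 1 (0.0457) or wild-type library 2 (0.0486). EIF1AD was called higher in edgeR under the same scaling (adjusted p = 0.0127) and minimum (0.0247), and without RD2-mutant library 1 (0.0166) or wild-type library 1 (0.0446).

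The factors that act at subunit joining moved in opposite directions. EIF5, which triggers GTP hydrolysis by eIF2 once the start codon is found, had 22676, 24691 and 22875 counts in the RD2-mutant rescue and 19313, 19523 and 19680 in the wild-type rescue. All RD2-mutant libraries were above all wild-type libraries, a 1.21-fold rise (875 ± 39.2 against 725 ± 21.5 CPM, SD, n = 3 each; log2 0.27, SE 0.034; edgeR, adjusted p = 4.05e-07). EIF5B, the GTPase that joins the large subunit, had 9687, 10181 and 9676 counts in the RD2-mutant rescue and 12328, 11636 and 11911 in the wild-type rescue. It fell 1.21-fold (log2 -0.27, SE 0.031; edgeR, adjusted p = 1.14e-07). EIF6, which keeps free large subunits from joining and acts in their assembly, had 2478, 2371 and 2474 counts against 3106, 2976 and 3120. It fell 1.25-fold (log2 -0.32, SE 0.036; edgeR, adjusted p = 8.01e-08). In GENCODE v29, 17.4% of the EIF6 exon bases are shared with another annotated gene of the same strand.

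EIF5A, named as an initiation factor but known to act mainly in elongation and termination once its lysine is turned into hypusine, had 8763, 9046 and 9162 counts in the RD2-mutant rescue and 12785, 12042 and 12562 in the wild-type rescue. It fell 1.38-fold (336 ± 8.62 against 463 ± 3.19 CPM, SD, n = 3 each; log2 -0.46, SE 0.030; edgeR, adjusted p = 2.17e-11). EIF5AL1, an intronless copy, had 818, 857 and 761 counts against 1254, 1130 and 1168 (log2 -0.53, SE 0.051; edgeR, adjusted p = 8.43e-09). Its counts were 9.33%, 9.47% and 8.31% of those of EIF5A in the RD2-mutant libraries and 9.81%, 9.38% and 9.30% in the wild-type libraries. In GENCODE v29 the coding sequences are 98.9% identical, with 5 differing bases in 462, so reads of these genes may be shared and the EIF5AL1 value is uncertain. The stretch with the most differences is shown from coding base 46 to 135, with the 3 differing bases in capitals.
EIF5A: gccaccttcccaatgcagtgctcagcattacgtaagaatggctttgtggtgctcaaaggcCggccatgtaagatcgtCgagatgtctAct
EIF5AL1: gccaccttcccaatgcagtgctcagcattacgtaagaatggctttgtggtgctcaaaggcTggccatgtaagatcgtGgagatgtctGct
The hypusine enzymes DHPS and DOHH both rose, by 0.18 and 0.25 on the log2 scale (edgeR, adjusted p = 0.00477 and 0.00577).

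The rows EIF2C1 to EIF2C4 carry older symbols of the Argonaute genes AGO1 to AGO4, whose proteins carry miRNAs and do not belong to the initiation machinery. EIF2C1 had 1784, 1874 and 1745 counts in the RD2-mutant rescue and 2408, 2487 and 2572 in the wild-type rescue, a 1.37-fold fall (log2 -0.46, SE 0.042; edgeR, adjusted p = 3.80e-09). EIF2C4 moved the other way, with 1288, 1270 and 1249 counts in the RD2-mutant rescue against 1020, 951 and 994 in the wild-type rescue, a 1.29-fold rise (log2 0.37, SE 0.044; edgeR, adjusted p = 2.04e-07). It was the sole member still called higher against a minimum change of 1.2-fold. EIF2C2, the form that cuts its targets, and EIF2C3 fell by 0.34 and 0.26 on the log2 scale. Without these 4 rows, 27 of 43 members fell and 2 rose. Of 10 tested partners of the Argonautes, 5 fell, 2 rose and 3 did not pass the test. Over all genes tested 34.8% were lower and 35.4% higher, or 70.1% in either direction. DICER1, which cuts miRNA precursors, was at -0.53 and GEMIN4 at -0.46, with TNRC6A at -0.14, while the scaffold gene TNRC6C was at 0.21.

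Genes that control or adjoin the initiation factors were taken from lists for 12 functions, with 92 tested of 96 in the table. Of these 48 fell, 23 rose and 21 did not pass the test, with a median log2 fold change of -0.11. Over all genes tested 34.8% were lower and 35.4% higher, which is the background for the count of every list that follows. On the list for the eIF2 alpha phosphatase and the stress response, 7 of 8 rose and 1 fell, with a median of 0.45. ATF4, the factor whose translation goes up when eIF2 alpha is phosphorylated, had 10361, 9992 and 10113 counts in the RD2-mutant rescue against 7339, 6839 and 7507 in the wild-type rescue (log2 0.50, SE 0.032; edgeR, adjusted p = 1.03e-11). Its targets DDIT3, a death-promoting factor, and CHAC1, which degrades glutathione, were 2.31-fold and 2.49-fold higher, and ATF5 was 1.55-fold higher. ASNS, the asparagine synthetase and also an ATF4 target, fell 1.46-fold, with 3723, 3887 and 3683 counts against 5630, 5427 and 5571. The phosphatase subunit genes PPP1R15A and PPP1R15B rose by 0.40 and 0.26 on the log2 scale.

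The 4 kinases of eIF2 alpha split. EIF2AK3 (PERK), the kinase of the endoplasmic reticulum, had 3919, 4171 and 3846 counts in the RD2-mutant rescue against 2917, 2921 and 2865 in the wild-type rescue, a 1.38-fold rise (log2 0.46, SE 0.038; edgeR, adjusted p = 5.87e-10). The amino acid sensor EIF2AK4 (GCN2) was at -0.45, the double-stranded RNA sensor EIF2AK2 (PKR) at -0.28 and the haem-regulated EIF2AK1 at -0.19, and all 3 passed the test as lower.

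Among 12 tested genes of cap-binding control, 8 fell, 2 rose and 2 did not pass the test, with a median of -0.22. EIF4EBP1, which holds EIF4E away from EIF4G until mTOR phosphorylates it, had 1232, 1151 and 1186 counts in the RD2-mutant rescue against 932, 909 and 1010 in the wild-type rescue, a 1.26-fold rise (log2 0.33, SE 0.049; edgeR, adjusted p = 3.67e-06). Its relative EIF4EBP2 fell by 0.28 on the log2 scale. PDCD4, an inhibitor of EIF4A, rose 1.21-fold, with 16600, 17545 and 16550 counts against 14414, 13986 and 13928. LARP1, which binds the pyrimidine tract, fell 1.49-fold (493 ± 7.09 against 736 ± 4.14 CPM, SD, n = 3 each; edgeR, adjusted p = 1.87e-13). CYFIP2, of the FMRP and EIF4E complex, was at -0.43, MKNK2, a kinase of EIF4E, at -0.38, and the nuclear cap-binding NCBP2 at -0.25.

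Among the poly(A)-binding proteins, which EIF4G1 ties to the cap, and their partners, 3 of 6 tested genes fell. PABPC1 had 19295, 19745 and 19367 counts in the RD2-mutant rescue against 32929, 30857 and 32607 in the wild-type rescue (log2 -0.71, SE 0.028; edgeR, adjusted p = 3.93e-15). PABPC4 was at -0.74 and PABPC3, an intronless copy whose reads may be shared with PABPC1, at -0.66, while the other 3 did not pass the test. On the elongation and termination list 10 of 15 fell, 1 rose and 4 did not pass, with a median of -0.38. EEF1G (-0.93), TPT1 (-0.77), the translocase EEF2 (-0.62) and EEF1A1 (-0.70), of which many processed pseudogenes exist, had the smallest p among its called genes. Of 8 genes for scanning, recycling and reinitiation, 7 fell and 1 rose, with a median of -0.26. ABCF2 was at -0.60, the scanning helicase DHX29 at -0.47 the recycling factor ABCE1 at -0.43 and ABCF1 at -0.26, and DENR rose by 0.09.

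The mTOR to S6 kinase list stood near the share over all genes in both directions, with 4 of 12 (33.3%) higher, 4 lower and 4 that did not pass the test (median -0.07). TSC1, an inhibitor of mTOR, rose 1.48-fold (94.2 ± 2.57 against 63.8 ± 2.13 CPM, SD, n = 3 each; edgeR, adjusted p = 7.02e-11). RPS6KA1 was at 0.28 and RPS6KB2, an S6 kinase, at -0.26, with MTOR itself at -0.12. Of 8 partners of EIF4A3 in the exon junction complex and in nonsense-mediated decay, 2 rose and 2 fell, with UPF3B (0.36) and UPF3A (0.35) among the higher and UPF1 (-0.27) and CASC3 (-0.16) the lower ones. For initiation in mitochondria, MTIF3 rose by 0.53 on the log2 scale, MTFMT, which formylates the initiator tRNA, was at -0.61, and MTIF2 did not pass the test. On the list of regulators all 4 tested genes fell, with MNT, a partner of MAX that opposes MYC, at -0.24 and MAX at -0.08 beside MYC and BCL6. BCL6, the gene put back in every library, is counted here and among all related genes that fell.

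**Figure D4:**
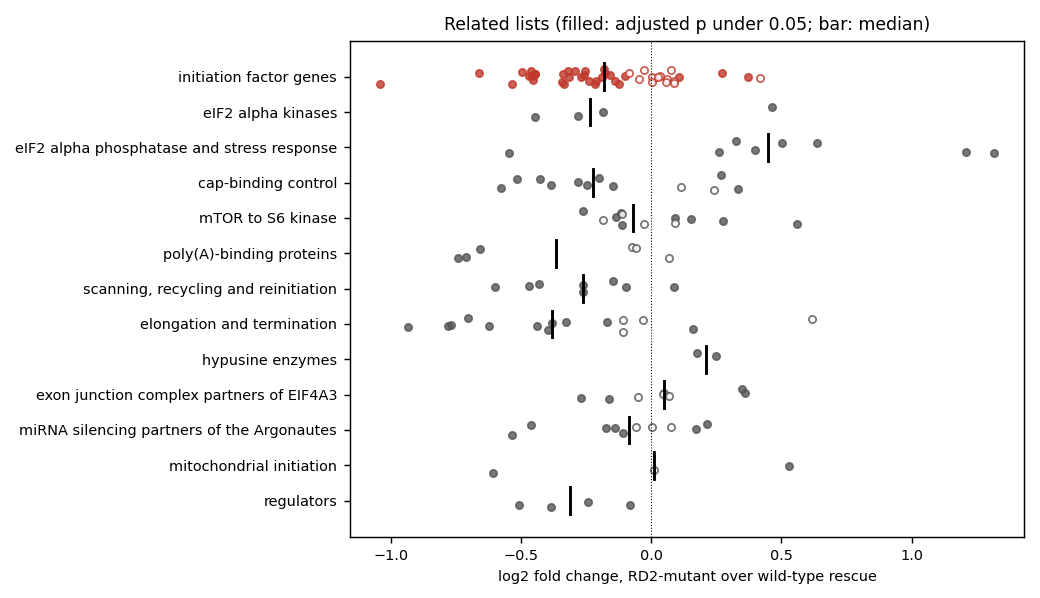
Log2 fold change, RD2-mutant over wild-type rescue (x axis), of the members (top row, the Y-linked one not drawn) and of the tested genes on each related list (rows below); filled points passed the test at adjusted p under 0.05 and black bars are medians. The median of the members is -0.18, that of the elongation and termination list -0.38 and that of the stress response list 0.45.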

How the data were processed

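RNA was extracted with Trizol and sequenced from Illumina TruSeq libraries, per the labels' protocols. CASAVA 1.8.2, STAR, edgeR and build hg19 are listed in the submitters' processing notes, with no role or order. Which counter and annotation were used, whether by strand, and what was done with reads that map to several places is not given in the sources used here. Raw counts make up the deposited table, 1 column per library and 1 row per symbol. Without a known strand setting, reads of overlapping genes on opposite strands cannot be told apart.

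Counts of the 6 libraries (26298456 to 27574867 each) were fitted in R 4.3.3 with edgeR 4.0.16: filterByExpr, TMM scaling, robust quasi-likelihood test of the RD2-mutant against the wild-type rescue with no covariate, and Benjamini-Hochberg adjustment over the 12406 genes tested (threshold 0.05). CPM values are TMM-scaled, except for the sums of markers, the floor and the filter of 1 CPM, which use the total counts of a library. Log2 fold changes are RD2-mutant over wild-type rescue. The SE is the log2 fold change divided by the square root of the F statistic. Ratios of related genes used an exact permutation test over libraries. Overlaps and shared 50-base stretches came from GENCODE v29 and promoters from RefSeq (GRCh38.p14), which are not the build of the counts.

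All 52 members are accounted for. Counts per library are given for members with fixed roles, for those with the smallest p in each complex and direction, for the 4 highest and 4 lowest log2 fold changes, and for pairs of related genes. Of the related lists, up to 4 called genes with the smallest p and 6 of fixed role are named; other genes named there were chosen after their values were seen. The members and lists were chosen with earlier results of these data known. Alternatives were RLE, upper-quartile and total-count scaling, 2 other filters, DESeq2 1.42.0, limma-voom (limma 3.58.1), the likelihood ratio test, a block for the replicate number, a required change of 1.2-fold (glmTreat), and fits without each library. The test was checked on simulated data in which far fewer genes changed than were called here. That check does not cover data in which most genes change.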

Additional observations from a re-analysis of the deposited data

How the results depend on the processing

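The number of members lower in the RD2-mutant rescue was 30, and 30 or 31 under each alternative that kept all libraries, apart from the minimum change of 1.2-fold (15) and the count without the EIF2C symbols (27); it ran from 29 to 32 when 1 library was left out. The number higher was 3, and less stable: it was 8 with total-count scaling, 8 with at least 1 CPM in all libraries, 7 with the replicate block and 1 against 1.2-fold, and ran from 3 to 6 when 1 library was left out (5 without RD2-mutant library 1, 6 without RD2-mutant library 2 and 5 without wild-type library 1). With total-count scaling the added ones were EIF1, EIF1AD, EIF2B4, EIF2B5 and EIF4G3, with adjusted p of 0.0510 to 0.117 in edgeR as reported. Of the 47 tested members, 38 had the same call under each alternative that gave them a value, glmTreat aside, 28 of them lower and 3 higher. EIF4E3, among them, had none with at least 1 CPM in all libraries. No called direction reversed. Related genes were 48 lower and 23 higher, against 24 and 10 with the minimum change of 1.2-fold and 43 to 50 and 21 to 26 when 1 library was left out. Of all genes 8702 were called, against 4585 with that minimum and 8099 to 8916 without 1 library. The mean differences in log2 ratio ran from -0.53 to -0.49 for EIF4G1 to EIF4G3, 0.29 to 0.38 for EIF4E to EIF4E2, -0.58 to -0.31 for EIF4E to EIF4E3 and 0.16 to 0.21 for EIF1 to EIF1B without 1 library. Same-numbered libraries did not all deviate together (correlations 0.14, 0.17 and -0.05 over genes, against -0.18 to 0.07 for differently numbered ones). The numbers were not taken as pairs, though these values do not show that pairing is absent. Under the block 9285 genes were called, with EIF1, EIF1AD, EIF2B4 and EIF2B5 added as higher and EIF4ENIF1 as lower.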

Other observations

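The pseudogene row EIF3IP1, a copy of EIF3I that was not a member, had 167, 198 and 164 counts in the RD2-mutant rescue against 236, 252 and 215 in the wild-type rescue. That is 2.90%, 3.28% and 2.78% of the EIF3I counts in the RD2-mutant libraries and 2.76%, 3.16% and 2.49% in the wild-type libraries.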
